A study of Mus musculus with 6 samples.

Results

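Potassium channel genes were followed in neurospheres that overexpressed Bmi1, a component of Polycomb repressive complex 1, and in neurospheres that carried the empty vector. The genes were those whose platform symbol begins with Kcn, taken from probe sets that name a single gene, with Kcnj10 left out. They numbered 91 of the 19938 genes with a probe set of their own and were covered by 94 of 35557 probe sets. Each gene was represented by its probe set with the highest mean over the 6 arrays. By gene family, 35 were voltage-gated, 14 were inward rectifiers, 14 were two-pore channels and 8 belonged to the calcium-activated group. A further 17 encoded auxiliary subunits or regulators, and 3 were noncoding genes on the opposite strand of a channel gene.

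Neural stem/progenitor cells had been taken from the wall of the lateral ventricle of CD1 mice, an outbred strain, at an age of 4 to 6 weeks and grown as neurospheres, which are free-floating clones fed with EGF and FGF. In the empty vector group (n = 3 arrays) the cells carried a retroviral vector without Bmi1, and in the Bmi1 group (n = 3 arrays) the same vector with Bmi1. Both groups had been sorted on the eGFP of the vector and grown at clonal density, and neither carried a deletion or a drug treatment. The design describes the cultures as independent but nothing names separate mice, so that p-values measure the spread between these arrays. The labels name pCMMP-Bmi1, whereas the accompanying text describes a FLAG-tagged construct. Groups follow the title, transduction and genotype fields, because on each of the 6 arrays the source field gives the reverse assignment.

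Potassium channels let potassium ions leave or enter the cell and thereby set the resting potential and end action potentials. Voltage-gated channels open on depolarization, inward rectifiers and two-pore channels carry current near rest, and calcium-activated channels couple calcium entry to membrane repolarization. In the adult subventricular zone, glia-like stem cells are known for a large resting potassium conductance, whereas delayed-rectifier and transient currents appear as their progeny become neuroblasts.

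Between the groups, 11 of the 91 genes passed the test. Kcna6, Kcnk10, Kcnip1, Kcnh3 and Kcnab3 rose with Bmi1, and Kcnq5, Kcnh8, Kcnc1, Kcnma1, Kcnmb1 and Kcnd3 fell, by 0.39 to 1.07 on the log2 scale in either direction. The other 80 did not pass. After median centring of the arrays 3 rose and 7 fell, and after quantile normalization 3 rose and 6 fell. Values are log2 RMA expression, and a gene was said to rise or fall at an adjusted p under 0.05 in limma, adjusted after Benjamini-Hochberg for all 35557 probe sets. Potassium channel genes that passed made up 12.1%, against 7.35% of all genes, with 5.49% that rose against 2.98% and 6.59% that fell against 4.37%. The median difference, Bmi1 minus empty vector, was 0.03 among the potassium channel genes and 0.01 among all genes, and 49 of the 91 differences were positive. Groups did not overlap for 21 of the 91 genes (23.1%), 13 of them higher and 8 lower with Bmi1, against 31.3% of all genes. Of the 80 genes that did not pass, 64 had a 95% confidence interval that lay within 0.5 of no difference on either side.

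**Figure D1:**
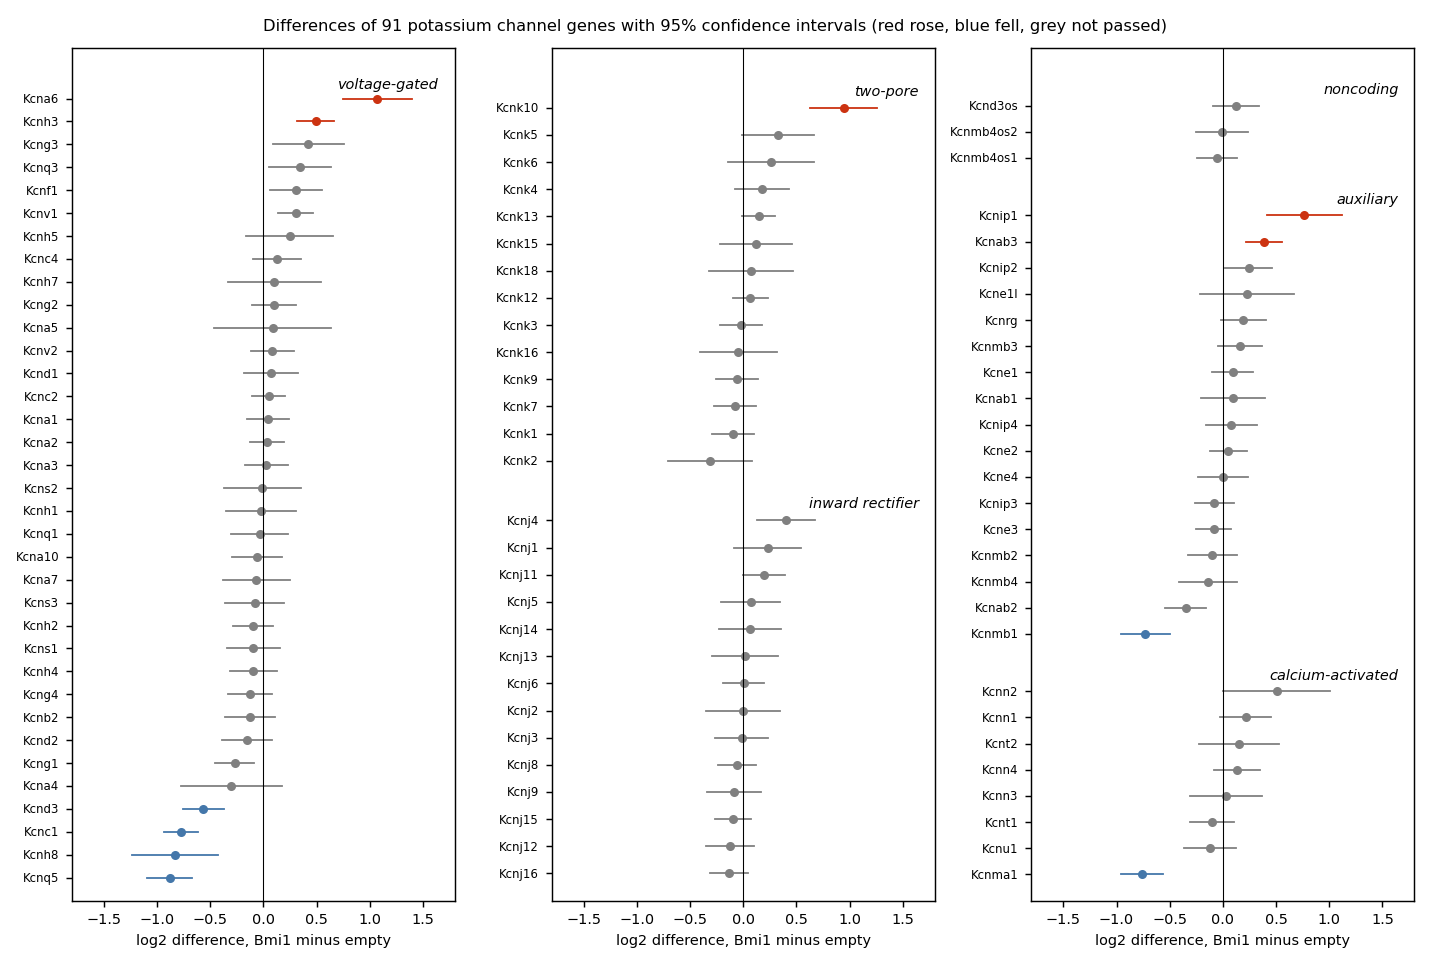
Log2 difference (Bmi1 minus empty vector, x axis) of each of the 91 potassium channel genes, ordered within their classes; points are limma estimates from 3 arrays per group and lines their 95% confidence intervals. The 5 genes that rose and the 6 that fell lie in the voltage-gated, two-pore, calcium-activated and auxiliary classes, and no inward rectifier passed the test.

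The deposited arrays had medians between 4.37 and 4.45 and correlated at 0.991 to 0.993 within groups and 0.985 to 0.987 between groups. The Bmi1 probe set did not separate the groups, with 7.70, 8.40 and 8.31 in the empty vector arrays and 9.18, 8.36 and 8.42 in the Bmi1 arrays. Its difference was 0.52 (95% confidence interval −0.16 to 1.19, limma adjusted p = 0.38), so that it checks the labels only weakly. Cdkn2a, a known target of Bmi1 repression, fell by 1.08 (limma adjusted p = 0.0012). Directions below follow the array titles.

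In the voltage-gated class, 6 of 35 genes passed (17.1%, against 7.35% of all genes), 2 upwards and 4 downwards, with a median difference of −0.01. Kcnc1 encodes a Kv3 channel, known for the fast repolarization that allows rapid firing. Its probe set 10553261 read 7.57, 7.49 and 7.61 with the empty vector and 6.81, 6.77 and 6.76 with Bmi1. All 3 Bmi1 arrays lay below all 3 controls, and Kcnc1 fell by 0.78 ± 0.07 (SE, n = 3 per group), or 1.71-fold (limma adjusted p = 0.0023). The other Kv3 genes measured, Kcnc2 and Kcnc4, differed by 0.05 and 0.12 and did not pass, and their difference from Kcnc1 was not tested.

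Kcnq5 encodes a subunit of the Kv7 channels that carry the M-current, a slow potassium current that restrains repetitive firing. Its probe set 10353460 read 5.61, 5.70 and 5.70 with the empty vector and 4.65, 4.81 and 4.90 with Bmi1. The groups were apart, and Kcnq5 showed the largest fall among the 91 genes, 0.88 ± 0.09 (SE, n = 3 per group), or 1.84-fold (limma adjusted p = 0.0037). Kcnq3, its partner in M-channels, did not pass, with a positive difference of 0.34 (95% confidence interval 0.05 to 0.64, limma adjusted p = 0.19). Kcnq1 differed by −0.04 and did not pass.

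Kcnd3 encodes a Kv4 channel, which carries the fast transient A-type current. Its probe set 10495083 read 7.93, 8.06 and 8.04 with the empty vector and 7.39, 7.56 and 7.39 with Bmi1. The groups were apart, and Kcnd3 fell by 0.57 ± 0.08 (SE, n = 3 per group), or 1.48-fold (limma adjusted p = 0.013). The adjusted p rose above the threshold without Empty vector array 2 or 3 (0.060 each) and without Bmi1 array 1 (0.056). The other Kv4 genes did not pass, where Kcnd2 differed by −0.16 (95% confidence interval −0.39 to 0.08), and Kcnd1 by 0.07. Kcnd3os, a noncoding gene whose RefSeq model overlaps Kcnd3 on chromosome 3, differed by 0.12 and did not pass.

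Among the ether-a-go-go (EAG) genes, 1 of 7 rose, against 2.98% of all genes, and 1 fell, against 4.37%. Kcnh8 (probe set 10445879) read 4.28, 4.07 and 4.55 with the empty vector and 3.33, 3.76 and 3.33 with Bmi1. It fell by 0.83 ± 0.17 (SE, n = 3 per group), or 1.78-fold, with groups apart and the largest adjusted p of the 11 (limma, 0.044). The call was lost without Empty vector array 1, 2 or 3 (limma adjusted p = 0.12, 0.063 and 0.12) and without Bmi1 array 1 or 3 (0.14 and 0.12). The second probe set of Kcnh8, 10451784, differed by −0.35 and did not pass (limma adjusted p = 0.11). Kcnh3, of the same Elk branch as Kcnh8, moved in the other direction. Its probe set 10426704 read 4.70, 4.73 and 4.63 with the empty vector and 5.23, 5.09 and 5.21 with Bmi1. It rose by 0.49 ± 0.07 (SE, n = 3 per group), or 1.41-fold, with groups apart (limma adjusted p = 0.014). That call was lost without Empty vector array 1, 2 or 3 (limma adjusted p = 0.054, 0.053 and 0.062) and without Bmi1 array 1 or 3 (0.060 and 0.053). Kcnh1 and Kcnh2 differed by −0.02 and −0.10 and did not pass.

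Kcna6 encodes a Kv1 delayed rectifier and showed the largest difference of the 91 genes. Its probe set 10548051 read 4.00, 4.12 and 4.21 with the empty vector and 5.36, 4.91 and 5.28 with Bmi1. The lowest Bmi1 array stood above the highest control, and Kcna6 rose by 1.07 ± 0.13 (SE, n = 3 per group), or 2.10-fold (limma adjusted p = 0.0082). The methods' t-test gave it an adjusted p of 0.052 after Benjamini-Hochberg adjustment. Kcna5, Kcna1 and Kcna6 are RefSeq neighbours on chromosome 6, and of these Kcna6 alone passed the test, with Kcna1 at 0.05 (95% confidence interval −0.15 to 0.24) and Kcna5 at 0.09. Kcna2 and Kcna3, neighbours on chromosome 3, each differed by 0.03. The 10 electrically silent Kv subunits, which act only when combined with other Kv subunits, gave no call, with 4 of the 10 at an unadjusted p under 0.05 in limma, against 22.7% of all genes. Within that family Kcng3, Kcnf1 and Kcnv1 were higher on every Bmi1 array, by 0.42, 0.31 and 0.30, and Kcng1 was lower, with −0.27. These 4 of the 10 had groups that did not overlap, against 31.3% of all genes. Kcnv1 came nearest to the threshold among them (limma adjusted p = 0.059).

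**Figure D2:**
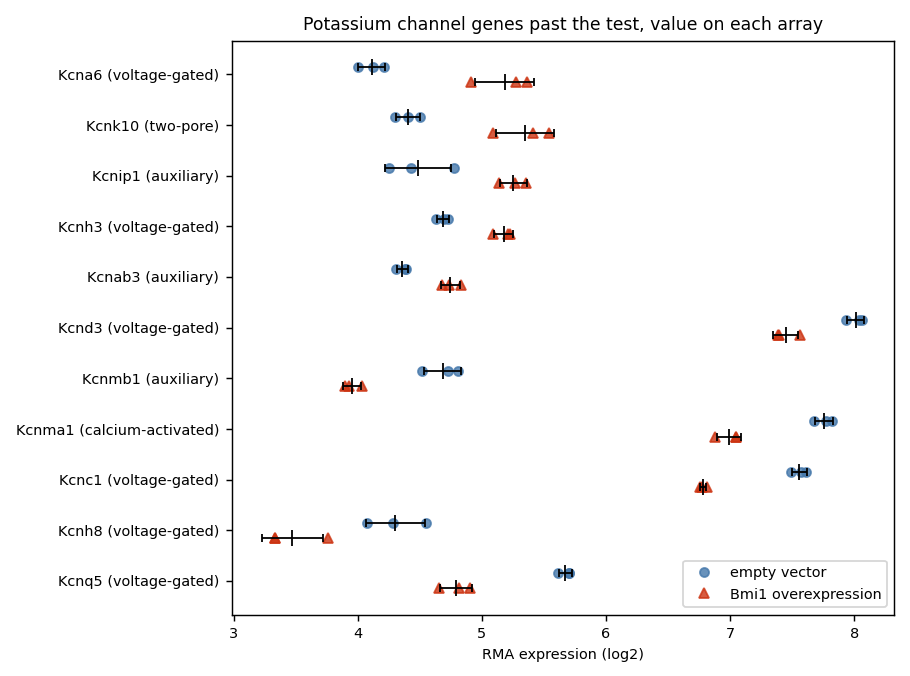
RMA expression (log2, x axis) of the 11 potassium channel genes that passed the test, with 1 symbol per array (circles, empty vector; triangles, Bmi1) and ticks at the mean with bars of 1 SD over 3 arrays. In each of the 11 genes, chosen by the test on these same arrays, the groups do not overlap, which holds for 31.3% of all genes. Kcna6 goes from 4.11 to 5.18 and Kcnq5 from 5.67 to 4.79.

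The calcium-activated class held the large-conductance (BK), small-conductance (SK) and intermediate-conductance (IK) channels. It followed gene families, so that its 8 genes included Kcnt1 and Kcnt2 (Slo2, sodium-activated) and Kcnu1 (Slo3). Of these 8 genes 1 passed (12.5%, against 7.35% of all genes). Kcnma1 encodes the pore-forming subunit of BK channels, which are opened jointly by calcium and voltage. Its probe set 10418053 read 7.82, 7.77 and 7.67 with the empty vector and 7.05, 7.05 and 6.87 with Bmi1. The groups were apart, and Kcnma1 fell by 0.76 ± 0.08 (SE, n = 3 per group), or 1.70-fold (limma adjusted p = 0.0050). A second probe set of Kcnma1, 10582545, had a mean of 2.30 over the arrays and differed in the other direction by 0.27 (limma adjusted p = 0.25). With the mean of both probe sets in place of the brighter one, the difference was −0.25 and no longer passed (limma adjusted p = 0.12).

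Kcnmb1, the BK beta subunit best known from smooth muscle, fell as well. Its probe set 10375137 read 4.80, 4.52 and 4.73 with the empty vector and 3.93, 4.04 and 3.90 with Bmi1. The groups were apart, with a fall by 0.73 ± 0.10 (SE, n = 3 per group), or 1.66-fold (limma adjusted p = 0.0098). The other BK beta subunits Kcnmb2, Kcnmb3 and Kcnmb4 differed by −0.10, 0.16 and −0.14 and did not pass. The SK genes Kcnn1, Kcnn2 and Kcnn3 and the IK gene Kcnn4 did not pass either. The largest difference among them was that of Kcnn2, 0.51, with overlapping groups at 4.55, 4.33 and 4.87 against 5.08, 4.75 and 5.43 (limma adjusted p = 0.25).

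Markers of mural cells, which include vascular smooth muscle, were read beside these BK genes. Of the 5 markers 1 passed (20%, against 7.35% of all genes). This was Acta2, the smooth muscle actin, which fell by 1.34 (limma adjusted p = 0.023). It read 9.19, 8.67 and 9.21 in the controls and 7.29, 7.77 and 7.99 with Bmi1. Pdgfrb, Rgs5, Anpep and Abcc9 had differences between −0.09 and 0.20 and did not pass. Their signal was low, with means of 3.55, 2.42, 3.12 and 3.80 over the 6 arrays. The mean level of the 5 markers, in which the difference of Acta2 was by far the largest, ranged from 4.27 to 4.41 in the controls and from 4.09 to 4.18 with Bmi1. The part of such cells in the falls of Kcnmb1 and Kcnma1 was not tested, and in RNA of whole cultures fewer cells of a type and less RNA per cell cannot be told apart.

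In the two-pore class, whose members carry background potassium current, 1 of 14 genes passed (7.14%, against 7.35% of all genes). Kcnk10 encodes TREK-2, a channel gated by stretch and lipids. Its probe set 10401987 read 4.50, 4.41 and 4.30 with the empty vector and 5.09, 5.54 and 5.41 with Bmi1. The groups were apart, and Kcnk10 rose by 0.94 ± 0.13 (SE, n = 3 per group), or 1.92-fold (limma adjusted p = 0.011). The adjusted p was 0.052 without Empty vector array 2 and 0.053 without Empty vector array 3. Its relative Kcnk2, which encodes TREK-1, read 7.16, 7.29 and 7.60 with the empty vector and 6.92, 6.87 and 7.31 with Bmi1. These groups overlapped, and the difference of −0.31 (95% confidence interval −0.71 to 0.08) did not pass (limma adjusted p = 0.36). The third member of this branch, Kcnk4, differed by 0.18, and Kcnk1 and Kcnk9 by −0.10 and −0.06, none of them past the test.

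None of the 14 inward rectifier genes passed, where the call was made for 7.35% of all genes, and at an unadjusted p under 0.05 limma gave 1 of the 14, Kcnj4, against 22.7% of all genes. Signal was low, as 12 of the 14 had a mean under 5 (85.7%), and among all genes with such means the call was made for 2.15%. The median difference of the 14 was 0.00 and their differences ran from −0.14 to 0.40. Kcnj16 encodes a subunit that forms glial channels together with other inward rectifiers. It read 8.18, 8.28 and 8.31 with the empty vector and 8.20, 8.07 and 8.09 with Bmi1. The groups overlapped, with a difference of −0.14 (95% confidence interval −0.31 to 0.04, limma adjusted p = 0.38). Kcnj2, a classical strong inward rectifier, differed by 0.00, and the G protein-gated genes Kcnj3 and Kcnj6 by −0.02 and 0.00. The ATP-sensitive channel genes Kcnj8 and Kcnj11 differed by −0.06 and 0.20. Kcnj4 was higher on every Bmi1 array, by 0.40, and did not pass (limma adjusted p = 0.11).

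Among the 17 auxiliary genes, 2 rose and 1 fell (17.6%, against 7.35% of all genes), the fall being that of Kcnmb1. Kcnip1 encodes a KChIP, a calcium-binding subunit of Kv4 channels. Its probe set 10385096 read 4.25, 4.43 and 4.77 with the empty vector and 5.26, 5.35 and 5.14 with Bmi1. The groups were apart, and Kcnip1 rose by 0.77 ± 0.15 (SE, n = 3 per group), or 1.70-fold (limma adjusted p = 0.035), opposite in sign to its partner Kcnd3. The call for Kcnip1 was lost without Empty vector array 1 or 2 (limma adjusted p = 0.082 and 0.12), without Bmi1 array 1, 2 or 3 (0.11, 0.11 and 0.077) and after median centring or quantile normalization (0.053 and 0.058). Kcnip3, the calcium sensor also known as DREAM, differed by −0.08 (95% confidence interval −0.26 to 0.10) and did not pass. RefSeq models of Kcnip1 and Kcnmb1 overlap on chromosome 11, and the former rose while the latter fell.

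Of the Kv beta subunits, which attach to Kv1 channels in the cytoplasm, Kcnab3 (probe set 10377516) read 4.38, 4.39 and 4.31 with the empty vector and 4.83, 4.73 and 4.68 with Bmi1. It rose by 0.39 ± 0.07 (SE, n = 3 per group), or 1.31-fold, with groups apart (limma adjusted p = 0.032). This was the only call of the 11 lost whichever array was left out, with an adjusted p between 0.058 and 0.11. It was also lost after median centring and after quantile normalization (limma adjusted p = 0.050 and 0.052). Kcnab2 lay the other way, with 8.13, 8.09 and 8.24 in the controls and 7.85, 7.86 and 7.70 with Bmi1. Its groups were apart, but the difference of −0.35 ± 0.08 (SE, n = 3 per group) missed the threshold (limma adjusted p = 0.061). Kcnab1 differed by 0.09. The 5 Kcne genes, encoding single-pass beta subunits, gave no call, and neither did the noncoding Kcnmb4os1, Kcnmb4os2 and Kcnd3os, with 0 of these 8 at an unadjusted p under 0.05 in limma, against 22.7% of all genes.

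**Figure D3:**
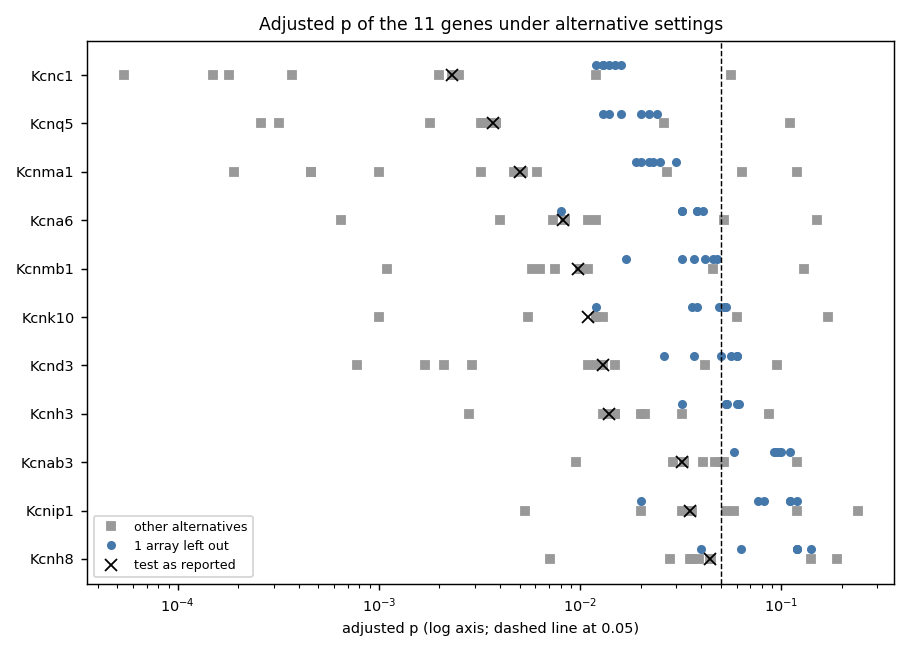
Adjusted p (log axis) of the 11 genes under the test as reported (crosses), with each array left out in turn (circles) and under the other settings but the replicate block (squares), with a dashed line at 0.05. Kcnc1, Kcnq5, Kcnma1, Kcna6 and Kcnmb1 stay below the line whichever array is left out, whereas all circles of Kcnab3 lie above it.

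Signal levels were set beside the calls. RMA values of different probe sets do not rank transcripts by abundance, and the deposited table holds no detection flag, so that a mean of 5 served only to describe signal. All 5 genes that rose had a mean under 5, as had Kcnh8 and Kcnmb1, whereas Kcnc1, Kcnma1, Kcnd3 and Kcnq5 had a mean of at least 5. In all, 62 of the 91 potassium channel genes (68.1%) had a mean under 5, against 48.7% of all genes. Of these 62 genes 7 passed (11.3%), against 2.15% of all genes with such means. The 5 that rose lay near the limit, with means of 4.55 to 4.93, while Kcnh8 and Kcnmb1 had 3.89 and 4.32. Levels under 5 were not matched between the 62 genes and all genes. Of the 29 with a mean of at least 5, 4 passed (13.8%), against 12.3% of all genes.

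**Figure D4:**
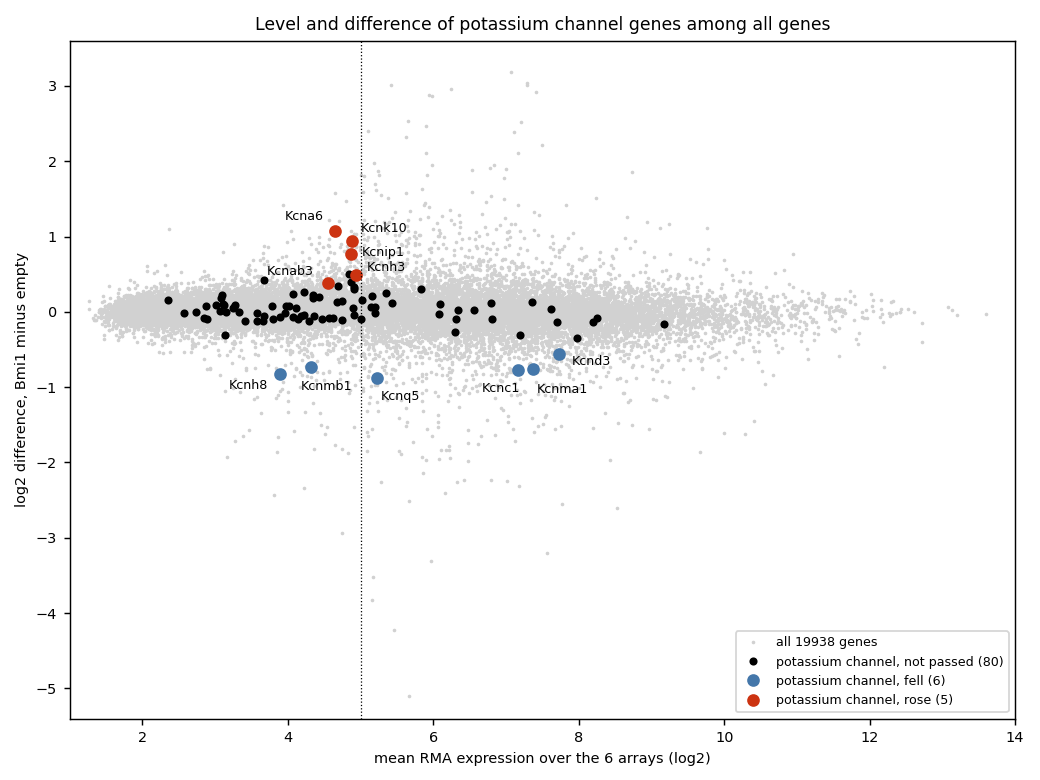
Mean RMA expression over the 6 arrays (log2, x axis) against the log2 difference, Bmi1 minus empty vector (y axis), for all 19938 genes (grey) and the 91 potassium channel genes (black, not passed; red, rose; blue, fell), with a dotted line at a mean of 5. The 5 genes that rose lie left of the line, and 4 of the 6 that fell lie right of it.

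Promoter windows were read for the potassium channel genes, because CG dinucleotides are the substrate of DNA methylation and CG-dense promoters are frequent binding sites of Polycomb complexes. Windows of 300 bases, from 250 before to 50 after the start, were taken from RefSeq (GRCm38.p6) and existed for 69 of the 91 genes, 94 windows in all. Those of the 5 genes with the smallest adjusted p are shown 5′ to 3′ on the strand of the gene, with every CG in capitals, since these 5 also kept their call whichever array was left out.
Kcnq5, window 1 (chr1:21962601-21962900, minus strand): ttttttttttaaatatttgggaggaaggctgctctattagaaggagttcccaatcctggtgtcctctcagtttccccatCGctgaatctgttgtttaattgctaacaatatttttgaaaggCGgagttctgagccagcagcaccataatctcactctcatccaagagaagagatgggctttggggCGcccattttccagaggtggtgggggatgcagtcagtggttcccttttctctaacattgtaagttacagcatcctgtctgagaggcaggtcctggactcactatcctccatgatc
Kcnq5, window 2 (chr1:21961893-21962192, minus strand): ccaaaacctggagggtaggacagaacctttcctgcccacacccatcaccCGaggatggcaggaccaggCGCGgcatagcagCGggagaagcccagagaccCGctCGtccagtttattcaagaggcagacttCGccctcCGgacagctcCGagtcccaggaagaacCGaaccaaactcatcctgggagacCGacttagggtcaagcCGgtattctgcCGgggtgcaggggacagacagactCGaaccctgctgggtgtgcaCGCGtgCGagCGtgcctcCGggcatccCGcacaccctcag
Kcna6 (chr6:126740625-126740924, minus strand): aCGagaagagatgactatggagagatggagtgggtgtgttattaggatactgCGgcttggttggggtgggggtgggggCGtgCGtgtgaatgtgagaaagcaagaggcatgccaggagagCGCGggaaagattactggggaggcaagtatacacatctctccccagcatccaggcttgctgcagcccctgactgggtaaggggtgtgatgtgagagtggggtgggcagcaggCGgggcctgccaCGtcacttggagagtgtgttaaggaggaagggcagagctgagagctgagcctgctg
Kcnc1 (chr7:46396218-46396517, plus strand): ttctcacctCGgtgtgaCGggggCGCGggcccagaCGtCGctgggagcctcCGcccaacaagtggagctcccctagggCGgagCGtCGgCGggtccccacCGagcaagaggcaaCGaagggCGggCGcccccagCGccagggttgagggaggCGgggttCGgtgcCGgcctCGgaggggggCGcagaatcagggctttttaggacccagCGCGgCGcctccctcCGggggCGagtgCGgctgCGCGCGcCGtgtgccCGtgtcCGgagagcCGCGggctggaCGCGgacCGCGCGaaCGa
Kcnmb1 (chr11:33962763-33963062, plus strand): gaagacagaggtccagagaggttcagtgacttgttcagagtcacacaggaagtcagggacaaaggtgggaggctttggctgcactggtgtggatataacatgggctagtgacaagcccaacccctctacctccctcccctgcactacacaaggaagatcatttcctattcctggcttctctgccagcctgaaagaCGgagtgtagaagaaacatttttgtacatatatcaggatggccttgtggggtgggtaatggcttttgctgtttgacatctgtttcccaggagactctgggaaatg
Kcnma1 (chr14:24004156-24004455, minus strand): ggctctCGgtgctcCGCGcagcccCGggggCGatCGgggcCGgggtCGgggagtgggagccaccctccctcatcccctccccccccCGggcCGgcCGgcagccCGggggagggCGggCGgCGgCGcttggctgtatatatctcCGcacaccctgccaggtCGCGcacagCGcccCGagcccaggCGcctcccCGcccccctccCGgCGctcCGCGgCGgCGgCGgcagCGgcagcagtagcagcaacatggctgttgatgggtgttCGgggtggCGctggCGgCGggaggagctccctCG
The Kcnc1 and Kcnma1 windows held 41 and 36 CG with GC contents of 74.7% and 78.0%. The Kcnq5 windows held 3 and 20 CG, that of Kcna6 held 8, and that of Kcnmb1 held a single CG at a GC content of 49.7%. All windows shown except that of Kcna6 belonged to genes that fell, and their CG counts ran from 1 to 41.

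A window was called CG-dense at an observed over expected CG ratio of at least 0.6 and a GC content of at least 50%. By this rule 26.6% of the windows of potassium channel genes were CG-dense, against 33.5% of all 32851 windows in the RefSeq table. Of the 7 windows of the 6 genes that fell 5 were CG-dense, and of the 6 windows of Kcna6, Kcnip1 and Kcnk10 none was, whereas 20 of 81 windows of genes that did not pass were (24.7%). Window 2 of Kcnk10 came near the limit, with a ratio of 0.587. Kcnh3 and Kcnab3, which also rose, had no window. The share of CG-dense windows among all genes that rose or fell was not computed. The median number of CG was 21 in windows of genes that fell, 7.5 in those of genes that rose, 9 in those that did not pass and 7 in all windows. Windows of 1 gene can overlap and so share sequence. The motif TATAAA, searched on both strands, lay in 5.3% of the windows of potassium channel genes and in 13.6% of all windows, and in 0 of the 13 windows of genes that rose or fell.

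**Figure D5:**
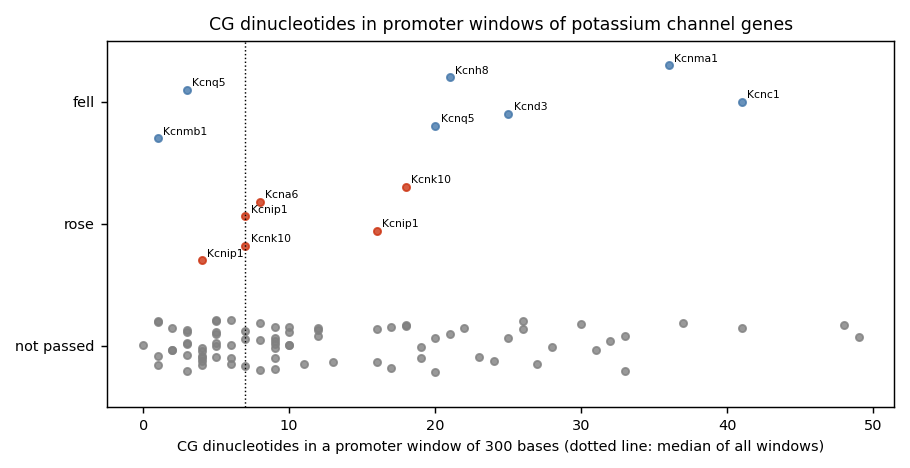
Number of CG dinucleotides (x axis) in each promoter window of 300 bases of the potassium channel genes, grouped by the result of the test, with 1 point per window and vertical scatter for display; the dotted line is the median of all windows, 7. Windows of genes that fell range from 1 to 41 and those of Kcna6, Kcnip1 and Kcnk10, the genes that rose and had a window, from 4 to 18.

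Beyond the channels themselves, 56 genes of potassium handling were measured, of which 3 rose and 1 fell (7.14% in all, against 7.35% of all genes). Slc12a7, a potassium-chloride cotransporter, read 4.80, 4.67 and 4.87 with the empty vector and 5.78, 6.05 and 6.02 with Bmi1. It rose by 1.17 (limma adjusted p = 0.0023), as 1 of 12 cation-chloride cotransport genes. Fxyd6, a modulator of the sodium-potassium pump, read 6.15, 6.32 and 6.47 against 7.33, 7.31 and 7.60. It rose by 1.10 (limma adjusted p = 0.0053), as 1 of 10 pump genes. Both of these genes were apart between groups, and the pump subunits measured, Atp1a4, Atp1b1, Atp1b2 and Atp1b3, did not pass. Of 14 scaffold genes that anchor channels, Nfasc rose by 0.66 (limma adjusted p = 0.031) and Ank2 fell by 0.63 (limma adjusted p = 0.011). No gene passed among 9 other auxiliary subunits of potassium channels, 9 HCN and CNG channels and 2 intracellular potassium channels, where limma gave 1, 0 and 1 at an unadjusted p under 0.05, against 22.7% of all genes.

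Sodium and calcium channel genes, the counterparts in membrane excitability, were described side by side. They were taken by symbol prefix, Cacng genes included, and their function as channel subunits was not checked. Of 35 such genes 2 rose and 3 fell (14.3%, against 12.1% of the potassium channel genes and 7.35% of all genes), with a median difference of 0.01. The falls of Scn7a and Cacna2d3, 2.44 and 2.25 (limma adjusted p = 0.00083 and 0.00089), were larger than any difference among the 91 potassium channel genes. Cacng5 fell by 0.77, and Cacna1d and Cacng4 rose by 0.39 and 0.51.

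Cell type markers were set beside the channel results, since many channel genes are read in particular neural cells. Of 7 neural stem and progenitor markers 2 rose, Prom1 by 1.58 and Hes5 by 1.05, and of 8 astrocyte markers Aqp4 rose by 1.06 and Gja1 by 0.76. Differences were negative for 3 of the 8 astrocyte markers, Slc1a3 (−0.31), Aldoc (−0.28) and S100b (−0.38), none of them past the test. Pdgfra, 1 of 5 markers of oligodendrocyte precursors, rose by 1.00. Olig2, the 1 precursor marker with a negative difference (−0.19), did not pass. Among 7 neuronal markers Dcx rose by 0.55 and Map2 fell by 0.47. In these 4 lists between 20.0% and 28.6% of the markers passed the test, against 7.35% of all genes. In the order given, 6 of 7, 7 of 8, 4 of 5 and 3 of 7 markers had a mean of at least 5. Among all genes with such means 12.3% passed. No marker of microglia (7), endothelium (5), ependyma (4) or mature oligodendrocytes (4) passed, and at an unadjusted p under 0.05 limma gave 1 ependymal marker and none of the other 3 lists, against 22.7% of all genes. The part of these cell types in the differences of the 11 potassium channel genes was not tested.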

How the data were processed

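RNA of 6 neurosphere cultures, 300 ng each, was labelled and hybridized, 1 culture per array and 3 arrays per group, to the Mouse Gene ST 1.0 array of Affymetrix. The authors deposited log2 expression per probe set, made by RMA (background correction, quantile normalization and probe summary) in Affymetrix Expression Console according to the submitters' processing notes, with versions not given in the sources used here. No counts or detection flags were used, so that precision rests on the number of arrays. Gene names came from the platform annotation, which gives 1 gene for 21789 probe sets, several for 1621 and none for 12147 of 35557. Probe sets naming several genes were not used for members. All 91 symbols matched RefSeq's gene table (GRCm38.p6). Because the build of the platform annotation is not named, that table served only for names and neighbours, and promoter windows came from RefSeq by symbol.

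The comparison used limma 3.58.1 under R 4.3.3, with lmFit and eBayes, two-sided, on all probe sets without filter or covariate (Benjamini-Hochberg adjustment, threshold 0.05). With 3 arrays against 3, exact permutation reaches no p below 0.1 and was not used. The fit was tested on simulated data. The members and lists were chosen with earlier results of these data known. Genes named were all members past the test or with a difference of at least 1, 28 fixed genes of known neural or glial roles (3 of them not analysed here), second probe sets that differed in call or sign, relatives of called genes, and list genes past the test. Relatives other than the 28, neighbours and the genes near the threshold were added after their values were seen. Alternatives included the methods' t-test at its thresholds (a difference of at least 1 with p under 0.001). The same test, and its Welch form, were run with Benjamini-Hochberg adjustment at 0.05 without a limit on the difference. The other alternatives were means of at least 5 or 6, 1 probe set per gene or the mean of all, median centring, quantile normalization, an intensity trend, a robust prior, array weights, leaving out each array in turn, and a block for the replicate number. Plots were made in matplotlib 3.10.9.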

Additional observations from a re-analysis of the deposited data

How the results depend on the processing

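The log2 differences of the 11 potassium channel genes kept their direction under every alternative in which the gene was fitted (the limits on the mean left out 7 genes at 5 and also Kcnq5 at 6), and Kcnab2, with a reported adjusted p of 0.061, passed under 5 of them (limma adjusted p = 0.0073 to 0.046). The number of genes past the test, 11 with 5 up and 6 down, was 14 with 1 probe set per gene in the adjustment, 13 with an intensity trend, 11 with array weights or a robust prior and 10 with the mean of all probe sets. At means of at least 5 and 6 it was 7 of 29 and 5 of 19 genes, with 1 and 0 that rose. After median centring and quantile normalization it was 10 and 9, with 3 that rose in both, and among all genes median centring gave 458 that rose and 1047 that fell instead of 594 and 871. The methods' t-test gave 0 at its thresholds and 7 after Benjamini-Hochberg adjustment, 2 of them up, with Kcna6, Kcnk10, Kcnip1 and Kcnh8 lost (adjusted p = 0.052, 0.060, 0.12 and 0.14), and its Welch form gave 0, also in each direction. With 1 array left out the count ranged from 5 to 10, with 1 to 4 that rose and 4 to 6 that fell. It was 7, 5 and 6 without Empty vector array 1, 2 and 3, and 6, 10 and 7 without Bmi1 array 1, 2 and 3.

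By class, the voltage-gated count of 6 was 0 by the methods' t-test at its thresholds and by its Welch form, 3 at a mean of at least 6 and 3 to 6 with 1 array left out. The auxiliary count of 3 was 0 by both of these t-tests, 1 at either mean limit and after quantile normalization, and 1 to 2 with 1 array left out. The two-pore count of 1 was 0 by all 3 forms of the t-test and at either mean limit, and 0 to 2 with 1 array left out. The calcium-activated count of 1 was 0 by the methods' t-test at its thresholds, by its Welch form and with the mean of all probe sets, since Kcnma1 was then averaged with its dim probe set. Among the 91 genes only Kcna6, a voltage-gated gene, had a difference of at least 1. The methods' thresholds could therefore give no call in any other class. The inward rectifier count of 0 was 1, Kcnj4, with 1 probe set per gene. Of the potassium handling genes, 4 as reported, 1 passed the methods' thresholds, 0 the Welch form and 9 the test at a mean of at least 6, with 2 to 3 when 1 array was left out. Of the sodium and calcium channel genes, 5 as reported, these were 2, 1 and 5, with 3 after adjustment of the methods' t-test and 3 to 5 when 1 array was left out. Where not given above, the cause of a changed count was not tested.

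Same-numbered arrays did not deviate together (correlations 0, −0.03 and −0.02, with 0.04 as the highest among differently numbered pairs). No pairing by number was thus seen, but a pairing with little effect across the array would not show in these correlations. With the replicate number as a block, 4 genes passed, 1 up (Kcna6) and 3 down (Kcnc1, Kcnma1 and Kcnq5), all but Kcnma1 voltage-gated, for a voltage-gated count of 3 and auxiliary and two-pore counts of 0, with 2 potassium handling genes and 2 sodium and calcium channel genes. Arrays carry no detection flags here, so that what the dim probe sets can show, 62 of the 91 with a mean under 5, is limited by signal over background, which was not measured.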
